A study of Homo sapiens with 60 samples.

Results

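The clones C6 and F7 are both TDP1 knockout lines of HEK293A, a line of human embryonic kidney cells, and they were compared here without any drug. The comparison took every library of these clones that was left untreated or given the vehicle, 0.1% DMSO, for 5 to 5.5 hours: 8 libraries of C6 and 8 of F7, each made of 4 untreated and 4 DMSO libraries, out of 60 libraries in the series. The rest of the series is a knockout clone named G6, and libraries of all 3 clones that received topotecan (100 nM), OL9-119 (5 µM) or the pair of them. All clones came from CRISPR/Cas9 cutting with guides to constitutive coding exons of TDP1, so TDP1 was a target of editing in every library used here, and wild-type libraries were not analysed here. Poly(A) RNA was sequenced and reads were counted per gene. C6 and F7 are 1 clone each: the libraries are biological replicates of a culture of each clone, p-values measure the spread between these libraries, and what came from the edit, from the cloning and from later culture cannot be told apart.

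TDP1 is the phosphodiesterase that frees DNA ends from trapped topoisomerase 1 and works with PARP1, XRCC1 and ligases in single-strand break repair. HEK293 lines arose from embryonic kidney cells transformed with adenovirus DNA, carry an unstable and uneven set of chromosomes, and express a mixture of kidney, neuronal and adrenal genes. A line grown from 1 cell keeps the chromosome set and much of the DNA methylation of that cell, and genes of clustered or repressed families (KRAB zinc finger genes, protocadherins, cancer-testis antigens) are known to be held silent by such marks in many cells.

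Totals ran from 5.26 to 16.97 M counts in C6 and from 5.22 to 19.8 M in F7. After thinning to 4.5 M counts, 17805 to 21610 genes were detected in C6 and 21548 to 23611 in F7, and 3 C6 libraries (untreated replicate 2 and DMSO replicates 1 and 2) lay under 20000 genes, where no F7 library did. The mitochondrial share was 5.24 to 6.64% in C6 and 4.35 to 6.07% in F7. The kidney development markers PAX2, LHX1, WT1, EYA1 and SALL1 had a median of at least 1 CPM (counts scaled by library size, per 1 M) in both clones, and PAX8 stayed below it. The blood marker PTPRC and UMOD of the mature nephron were at 0 in all 16 libraries. PC1, which held 49.6% of the variance of log2 CPM, separated the clones without overlap.

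**Figure D1:**
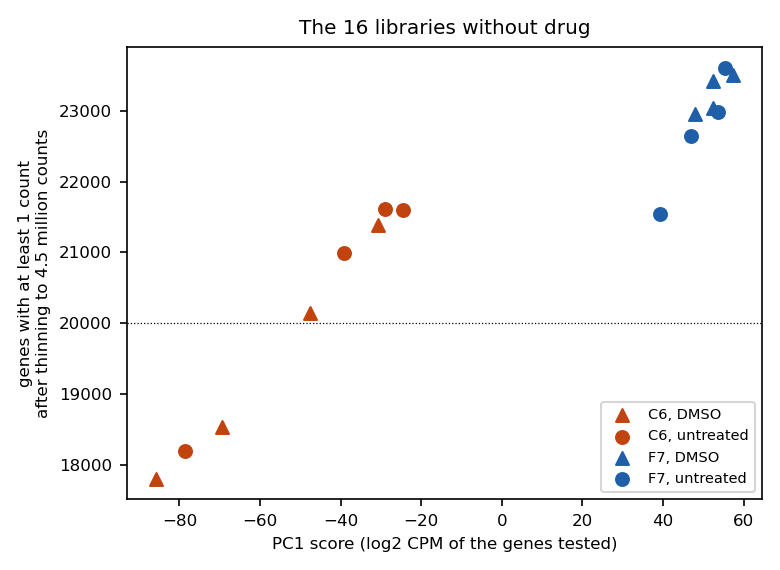
Detected genes after thinning (vertical axis, genes with at least 1 count, dotted line at 20000) against the PC1 score (horizontal axis) for the 16 libraries, circles untreated and triangles DMSO. The C6 libraries lie at PC1 scores from -85.9 to -24.5 and the F7 libraries from 39.3 to 57.4, and the 3 libraries under the line are from C6.

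TDP1 itself (ENSG00000042088, chromosome 14, 89954939 to 90044768) was still transcribed in both clones. Its level was 31.7 to 38.9 CPM in C6 (median 33.8) and 23.1 to 28.6 CPM in F7 (median 26.7), so that every C6 library lay above every F7 library. The difference was 0.41 ± 0.08 on the log2 scale (SE, adjusted p = 0.000127, edgeR quasi-likelihood), beside a median of 0.33 over the protein-coding genes of chromosome 14. Counts over a whole gene do not show a small edit in an exon, so the level does not check the knockout. TOP1 (ENSG00000198900, chromosome 20, 41028818 to 41124487), the enzyme whose trapped form TDP1 removes, went the other way: 236 to 339 CPM in C6 (median 280) and 384 to 497 CPM in F7 (median 428). Its difference of -0.65 ± 0.07 (adjusted p = 1.74e-07, edgeR) stood beside a chromosome 20 median of -0.55.

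Of 17051 genes tested, 9318 passed an adjusted p of 0.05 (54.6%), 4570 of them higher in C6 (26.8%) and 4748 lower (27.8%). Scaling by library totals alone moved the median over all genes from -0.03 to -0.13 on the log2 scale and the share of calls that were higher from 49.0% to 37.5%, so small differences of 1 direction depend on the scaling. At least 2-fold differences were called for 702 genes higher in C6 (4.12%) and 1666 lower (9.77%). Among protein-coding genes whose mean log2 CPM reached 2 the directions were even, 403 higher and 413 lower (3.46 and 3.55% of 11631), while among those under 2 there were 176 higher and 749 lower (7.26 and 30.9% of 2424). Without the 3 C6 libraries of low detection 10226 genes passed, with 744 higher and 1953 lower by at least 2-fold. The C6 and F7 libraries did not overlap in CPM for 3858 genes (22.6%), 1833 with C6 above (10.8%) and 2025 with C6 below (11.9%).

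The vehicle made no called difference: 0 genes passed between DMSO and untreated libraries (366, or 2.15%, at an unadjusted p under 0.05, edgeR), also by DESeq2 and limma voom. The clone difference depended on the vehicle for 0 genes by edgeR (1084, or 6.36%, at an unadjusted p under 0.05), for 2 by DESeq2 and for 276 by limma voom. Of the 9318 called genes, 9312 had the same sign in the untreated and in the DMSO libraries.

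The genes furthest apart, among those whose mean log2 CPM reached 2, were led by a zinc finger gene in each direction. ZNF532 (chromosome 18, 58862600 to 58986480), a C2H2 zinc finger protein, stood at 0 to 1.61 CPM in C6 (median 0.501) and at 23.4 to 36.1 CPM in F7 (median 29.4). It was 49.7-fold lower in C6 (log2 -5.64 ± 0.22, adjusted p = 1.41e-14, edgeR), and G6 had still more, with a median of 67.2 CPM. ZNF257 (chromosome 19, 22052452 to 22091480), a KRAB zinc finger gene, stood at 13.5 to 28.4 CPM in C6 (median 17.8) and at 0.19 to 1.2 CPM in F7 (median 0.739). It was 24.8-fold higher in C6 (log2 4.63 ± 0.19, adjusted p = 4.49e-14, edgeR), and G6 stood near F7 at a median of 2.12 CPM.

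Among the 15 genes most reduced in C6, several encode secreted proteins or ligands. CHRDL1, a secreted antagonist of BMP ligands, had a median of 1.00 CPM in C6 and 29.1 CPM in F7 (29.4-fold lower). BMP2, a BMP ligand, stood at 15.9 to 19.3 CPM in C6 (median 17.4) and at 138 to 176 CPM in F7 (median 154), and was 8.77-fold lower in C6 (log2 -3.13 ± 0.07, adjusted p = 8.59e-19, edgeR). The gap between the 2 groups was thus far wider than either group, and G6 lay between them at 56.3 CPM. MMP1, the interstitial collagenase, had a median of 2.10 CPM in C6 against 23.6 CPM in F7. CGA, the common alpha subunit of the glycoprotein hormones, had 5.41 against 42.04 CPM. ANKRD1, a nuclear protein and well-known target of YAP, stood at 60.7 to 85.9 CPM in C6 (median 70.0) and at 496 to 846 CPM in F7 (median 628), 8.86-fold lower in C6 (log2 -3.15 ± 0.11). ACTBL2, a protein close to beta-actin, had a median of 31.3 CPM in C6 and 363 CPM in F7, and reads shared with other actin genes make its count uncertain. HMOX1, the inducible haem oxygenase, had 4.98 CPM in C6 and 34.1 CPM in F7. ICAM1, an adhesion molecule for leukocytes, had 2.72 against 22.5 CPM. The other members were UNC13A (synaptic vesicle priming), CNKSR1 (a scaffold of RAS signalling), IL7R (the interleukin 7 receptor), ALOXE3 (an epidermal lipoxygenase), DEPP1 (a target of FOXO factors) and PDE2A (a cyclic nucleotide phosphodiesterase), with log2 differences from -3.43 to -2.64.

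Genes of matrix, retinoic acid and receptors stood among the 15 most increased in C6. COL2A1, the fibrillar collagen of cartilage, stood at 27.0 to 50.1 CPM in C6 (median 39.5) and at 1.47 to 7.61 CPM in F7 (median 2.46), 14.2-fold higher in C6 (log2 3.83 ± 0.19, adjusted p = 6.64e-13, edgeR). COCH, the matrix protein cochlin, had a median of 156 CPM in C6, of 24.98 in F7 and of 100 in G6. ALDH1A2, an enzyme that makes retinoic acid, stood at 61.4 to 82.7 CPM in C6 (median 66.1) and at 7.4 to 10.3 CPM in F7 (median 9.22), 7.51-fold higher in C6 (log2 2.91 ± 0.09). TENM1, a teneurin of neuronal contacts, had 48.4 against 5.55 CPM, and FZD10, a WNT receptor, had 12.9 against 1.71 CPM. ULK2, an autophagy kinase on the short arm of chromosome 17, stood at 37.5 to 47.3 CPM in C6 (median 39.9) and at 2.32 to 3.95 CPM in F7 (median 3.33), 12.8-fold higher in C6 (log2 3.68 ± 0.11). G6 had 25.7 CPM of it, so that F7 stood apart from both other clones. Of 13 tested genes within 500 kb of ULK2 none was higher in C6 and 1 was lower. Over chromosome 17, 25.1% of protein-coding genes were higher and 29.8% lower (mean log2 CPM of at least 2). The ULK2 difference was thus not shared along that stretch. MLH3, a mismatch repair protein with a role in meiosis, had 12.1 against 1.24 CPM (10.7-fold higher in C6). The others were EPHA7 (an ephrin receptor), IGFBP5 (a binding protein of insulin-like growth factors), DERL3 (degradation of misfolded proteins in the endoplasmic reticulum), LGALS8 (a galectin), FLT3 (a receptor tyrosine kinase), ZNF737 (a KRAB zinc finger gene) and DPY19L2 (known from the sperm head), with log2 differences from 2.44 to 3.23.

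**Figure D2:**
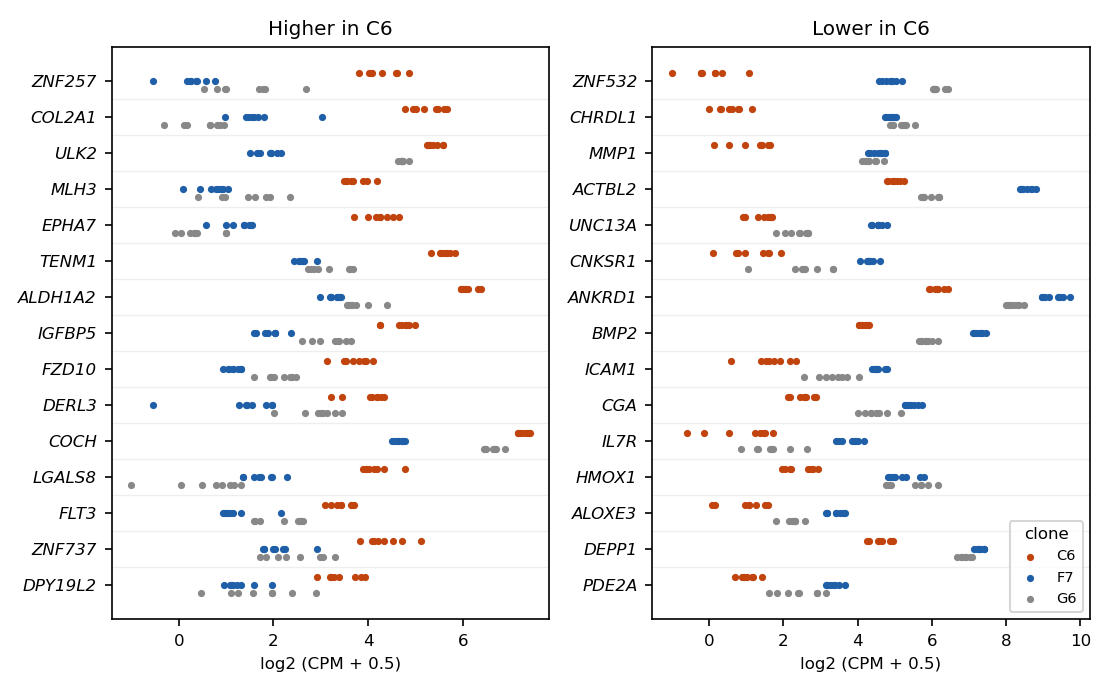
log2 (CPM + 0.5) of the 15 genes most increased (left) and most reduced (right) in C6, 1 point per library without drug, for C6, F7 and G6. In all 30 genes the 8 C6 points lie apart from the 8 F7 points, and the G6 median lies between the C6 and F7 medians in 12 of the 15 on each side. The genes were chosen by their difference in the same C6 and F7 libraries, and 22.6% of all genes tested have no overlap.

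Some genes were nearly off in 1 clone. Under the rule of less than 0.1 CPM in all 8 libraries of a clone and at least 1 CPM in all 8 of the other, 5 genes qualified, 2 near 0 in C6 and 3 near 0 in F7. The 3 in F7 had 0 counts in all 8 F7 libraries: SERP2, of the stress-associated endoplasmic reticulum protein family, CRABP1, which binds retinoic acid in the cytosol, and ZNF671, a KRAB zinc finger gene. SERP2 (chromosome 13, 44373665 to 44397714) stood at 3.77 to 6.47 CPM in C6 (median 4.47), at least 170-fold higher than the floor of 3 counts over the 8 F7 libraries together. CRABP1 (chromosome 15, 78340324 to 78348230) stood at 2.07 to 5.54 CPM in C6 (median 3.06), at least 120-fold higher. ZNF671 (chromosome 19, 57719751 to 57727624) stood at 1.34 to 4.66 CPM (median 1.57), at least 76-fold higher. These bounds cover counting error only. In G6, SERP2 was on in all 8 libraries (0.832 to 2.69 CPM), ZNF671 ran from 0 to 1.91 CPM, and CRABP1 was at most 0.147 CPM, so the 3 genes did not share one pattern over the clones.

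Promoters rich in CpG can be shut by DNA methylation, which was not measured here. The 250 bases before a RefSeq start of these 3 genes are shown because they differ in CpG content, with each CG in capitals, from RefSeq (GRCh38.p14), read 5′ to 3′ on the strand of the gene: SERP2 at chr13:44373397-44373646 (plus strand), CRABP1 at chr15:78340103-78340352 (plus strand) and ZNF671 at chr19:57727625-57727874 (minus strand). The RefSeq start used lies inside the gene as given above for CRABP1 and before it for SERP2.
SERP2: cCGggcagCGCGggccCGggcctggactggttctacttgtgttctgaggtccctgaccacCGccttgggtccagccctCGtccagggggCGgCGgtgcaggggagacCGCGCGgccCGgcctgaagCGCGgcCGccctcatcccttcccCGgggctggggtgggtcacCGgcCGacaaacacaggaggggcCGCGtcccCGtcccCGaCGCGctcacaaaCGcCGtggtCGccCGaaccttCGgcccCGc
CRABP1: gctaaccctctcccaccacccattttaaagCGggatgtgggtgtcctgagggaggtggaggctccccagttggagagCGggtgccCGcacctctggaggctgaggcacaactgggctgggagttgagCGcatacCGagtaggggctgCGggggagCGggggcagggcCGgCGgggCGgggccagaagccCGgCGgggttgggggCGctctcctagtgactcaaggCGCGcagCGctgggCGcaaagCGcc
ZNF671: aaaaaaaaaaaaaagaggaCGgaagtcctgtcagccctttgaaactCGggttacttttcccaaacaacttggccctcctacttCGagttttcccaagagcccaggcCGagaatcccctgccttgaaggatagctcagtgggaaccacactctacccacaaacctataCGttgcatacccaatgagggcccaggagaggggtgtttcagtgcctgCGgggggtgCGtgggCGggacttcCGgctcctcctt
The SERP2 window held 30 CG (36 in a window before another RefSeq start of the gene), the CRABP1 window 18 and the ZNF671 window 9. Over 35116 promoter windows of that length the median was 11, and 52.2% held at least 10. The count thus ran from above to below that of the typical promoter, and nothing follows from it about the state of these promoters.

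The 2 genes near 0 in C6 were CSAG1, a cancer-testis antigen gene on the X chromosome (152727484 to 152733735), and the non-coding RNA LINC02551. CSAG1 had 2 counts over the 8 C6 libraries and stood at 4.68 to 8.37 CPM in F7 (median 6.37). MAGEA12, a cancer-testis antigen gene that starts beside CSAG1 on the other strand, stood at 0 to 0.508 CPM in C6 and at 10.7 to 16.5 CPM in F7 (median 13.3, log2 difference -6.13 ± 0.31). Both were low in G6, with a maximum of 0.537 CPM for CSAG1 and a median of 0.22 CPM for MAGEA12, so F7 was the clone that had them. By the positions used here the 2 genes do not overlap (MAGEA12 from 152733779 to 152737669). The sources used here do not say whether the authors' counting used strand. Reads that run from 1 gene into the other thus cannot be assigned, and MAGEA12 has near-identical relatives. Of 7 tested genes within 500 kb of CSAG1, 1 was higher in C6 and 3 were lower, namely MAGEA12 and the GABA receptor subunits GABRQ and GABRA3 (GABRA3 log2 -3.16 ± 0.31). Over the X chromosome, 43.9% of protein-coding genes were higher and 17.2% lower (mean log2 CPM of at least 2). With a wider rule (under 0.2 CPM and at least 0.5 CPM) 28 genes qualified, 19 near 0 in C6, among them KCNK15 and TMEM45B, and 9 near 0 in F7, among them TSTD1, ZKSCAN7, IL20RA and ZNF626. With 0 counts required, only the 3 genes near 0 in F7 were left. The 3 C6 libraries of low detection have fewer genes above 0, and their part in that count was not tested.

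Low genes fall outside the naming rule by their mean over both clones, so the following were named after their values were seen. SOX11 (chromosome 2, 5692667 to 5701385), a transcription factor of embryonic neural and mesenchymal tissue, stood at 0 to 0.313 CPM in C6 (median 0.173) and at 33.8 to 42.03 CPM in F7 (median 37.6). G6 matched F7 with a median of 41.2 CPM, so C6 was the clone that lacked it. PLBD1 (chromosome 12, 14503661 to 14568349), of the phospholipase B family, stood at 9.94 to 19.1 CPM in C6 (median 13.6), and at no more than 0.105 CPM in F7 and 0.159 CPM in G6. PLEK2, a pleckstrin, and IAH1, an esterase, had the same order, with C6 medians of 9.12 and 9.23 CPM and medians of at most 0.192 CPM in F7 and G6. ARMCX4 stood at 11.5 to 15.2 CPM in C6 and at 13.7 to 20.02 CPM in G6 but at no more than 0.632 CPM in F7.

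**Figure D3:**
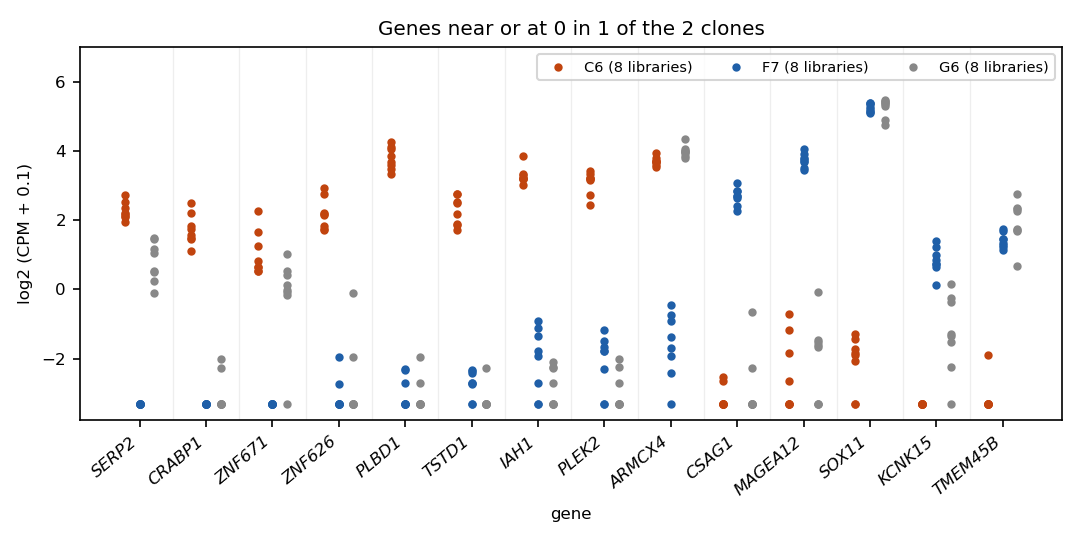
log2 (CPM + 0.1) of 14 genes at or near 0 in 1 of the clones C6 and F7, 1 point per library without drug, with G6 beside them. Points at the lowest level are libraries with 0 counts, and G6 stands with C6 for ARMCX4, with F7 for SOX11 and with neither throughout.

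Neighbouring genes were read beside the share of their chromosome or stretch. All 6 tested genes within 500 kb of ZNF257 were higher in C6 (median log2 1.81), and so were all 11 around ZNF626, both in the zinc finger cluster of chromosome 19, on which 40.4% of protein-coding genes were higher (counting those whose mean log2 CPM reached 2). Around ZNF671 24 of 44 were higher and 2 lower. Around SERP2, 3 of 5 were higher, led by CCDC122 (log2 1.46 ± 0.18) and TSC22D1 (0.72 ± 0.06), where 77.5% of such genes of chromosome 13 were higher. Around ZNF532, 5 of 8 were lower, a share near the 69.0% lower in the block of chromosome 18 that holds it. The lower ones were NEDD4L, a ubiquitin ligase (log2 -0.93), ALPK2, CCBE1, GRP and RAX, and MALT1, SEC11C and LMAN1 were not called. Around CRABP1 5 of 16 were higher and 4 lower (median 0.04). Of protein-coding genes counted the same way on chromosome 15, 52.9% were higher and 11.8% lower. Around PLBD1 3 of 7 were higher and 1 lower, beside 34.4% higher and 22.5% lower on chromosome 12. Neighbours of both genes thus went both ways. CAPN6, a calpain beside CHRDL1, was lower with it (mean 0.233 CPM in C6 and 7.12 CPM in F7). Of the 5 genes there 3 were lower and 2 not called, beside 17.2% lower on the X chromosome.

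Lineage genes moved in both directions within most classes, and some classes leaned to 1 side, which is read here against 26.8% higher and 27.8% lower over all genes. Low protein-coding genes (mean log2 CPM under 2) leaned lower in C6, with 30.9% lower and 7.26% higher by at least 2-fold. The part of such genes in these counts was not tested. Fewer cells of a type and less RNA per cell cannot be told apart in these libraries. Of 24 tested factors of nephron progenitors and kidney development, 9 were higher in C6 (37.5%), 6 lower (25%) and 9 not called (median log2 0.13), and with library totals alone the balance turned to 6 higher and 7 lower. EYA1, a cofactor of homeobox proteins in the kidney field, stood at 11.99 to 16.9 CPM in C6 and at 5.25 to 7.23 CPM in F7 (log2 1.17 ± 0.11, adjusted p = 1.41e-08, edgeR). SIX2, which keeps nephron progenitors, was higher (1.19 ± 0.18), and so was FOXC1, a factor of kidney mesenchyme (0.90 ± 0.06). CITED1, a marker of the same progenitors, was lower, at 2.02 to 4.8 CPM in C6 against 9.13 to 13.2 CPM in F7 (-1.71 ± 0.16), and WT1 was lower by a small amount (-0.51, adjusted p = 0.00277, edgeR). Of 11 tested mature nephron genes 2 were higher, 7 lower (63.6%) and 2 not called (median -0.45), or 0 and 8 with library totals alone. The mean log2 CPM of 5 of the 11 was under 2. AQP1, the water channel of the proximal tubule, stood at 4.24 to 10.1 CPM in C6 and at 18.2 to 28.7 CPM in F7 (-1.55 ± 0.13), and AQP3 followed it (-1.54 ± 0.15). LRP2, another mature nephron marker, went the other way (0.53, adjusted p = 0.0282, edgeR). Its median was 5.84 CPM in C6 and 4.14 CPM in F7, and the groups overlapped. The markers of the mature nephron summed to 9.32 to 19.4 CPM in C6 and to 28.1 to 36.2 CPM in F7, of which AQP1 gave most.

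Of 31 neuronal genes 9 were higher in C6, a share close to that over all genes, 12 lower (38.7%) and 10 not called (median -0.35). The mean log2 CPM of 12 of the 31 was under 2. NEFM and NEFH, the medium and heavy neurofilaments, were lower, NEFM at 2.41 to 4.66 CPM in C6 against 12.7 to 19.4 CPM in F7 (-2.15 ± 0.14) and NEFH by -2.52 ± 0.23, while the light neurofilament NEFL was higher by 0.32 (adjusted p = 0.000348, edgeR). SNAP25, of the synaptic release machinery, was lower (-2.06 ± 0.20). Of 25 neural tube and forebrain factors 11 were higher (44%), 7 lower (28%) and 7 not called. The higher ones included SOX2, which stood at 30.5 to 40.6 CPM in C6 and at 12.1 to 15.2 CPM in F7 (1.31 ± 0.08, adjusted p = 4.34e-11, edgeR) and POU3F2 (2.46 ± 0.19). OLIG2, of the oligodendrocyte lineage, was lower (-1.01 ± 0.15). Of 11 neural crest and adrenal genes 3 were higher, 4 lower and 4 not called. NGFR, the low-affinity neurotrophin receptor, was lower, at 17.6 to 34.5 CPM in C6 against 65.8 to 86.4 CPM in F7 (-1.48 ± 0.10), and CYP11A1, the first enzyme of steroid synthesis, was higher, at 3.23 to 7.58 CPM against at most 0.776 CPM (3.30 ± 0.32). Of 9 pluripotency and germline factors 2 were higher and 6 lower, among the latter TEX14 of germ cell bridges (-1.59 ± 0.09).

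Epithelial and mesenchymal genes leaned in opposite directions. A mean log2 CPM under 2 was found for 12 of the 30 tested epithelial and 7 of the 26 tested mesenchymal genes. Of 26 mesenchymal genes 14 were higher in C6 (53.8%), 3 lower and 9 not called (median 0.39; 11 and 5 with library totals alone, 15 and 5 without the libraries of low detection), and of 30 epithelial genes 7 were higher, 15 lower (50%) and 8 not called (median -0.40). VIM, the intermediate filament vimentin, stood at 517 to 698 CPM in C6 (median 602) and at 231 to 279 CPM in F7 (median 258), with a difference of 1.25 ± 0.05 (adjusted p = 7.02e-14, edgeR). TNC, the matrix protein tenascin C, stood at 109 to 153 CPM against 35.2 to 51.7 CPM (1.67 ± 0.08), and FN1, fibronectin, was higher by 0.72 ± 0.06. SNAI1, a repressor of epithelial genes, went against the list, at 5.45 to 8.56 CPM in C6 and 17.1 to 26.1 CPM in F7 (-1.56 ± 0.11). CDH1, E-cadherin, stood at 3.05 to 5.15 CPM in C6 and at 9.69 to 16.2 CPM in F7 (-1.72 ± 0.14), and CLDN1, a tight junction protein, was lower by -1.70 ± 0.09. KRT19, a keratin of simple epithelia, and DSP, desmoplakin, were higher (1.37 ± 0.12 and 0.55 ± 0.05). G6 had less CDH1 than either clone, with a median of 1.02 CPM. Fibroblast markers summed to 29.3 to 42.5 CPM in C6 and to 32.1 to 45.4 CPM in F7, with COL1A1 the most abundant and DCN at 0 in all C6 libraries.

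HOX genes, which record position along the body axis, were higher more often than lower. Of 34 tested, 14 were higher in C6 (41.2%), 3 lower (8.82%) and 17 not called (median 0.24), or 10 and 4 with library totals alone. By cluster, 5 of 11 HOXA, 3 of 9 HOXB, 2 of 7 HOXC and 4 of 7 HOXD genes were higher. HOXA5 stood at 14.5 to 18.2 CPM in C6 and at 6.31 to 8.41 CPM in F7 (1.15 ± 0.10, adjusted p = 4.8e-09, edgeR). HOXD10 was higher by 0.78 ± 0.08, and the 3 lower genes were HOXB13, HOXC13 and HOXD1. The HOXA genes lie on chromosome 7, whose median was 0.29.

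Among families that many cells keep silent, KRAB zinc finger genes and protocadherins were mostly higher in C6. Of the few cancer-testis antigens tested, mostly low genes, more were lower than higher. Repressive marks were not measured. Of 150 tested genes on a list of KRAB zinc finger genes of chromosome 19 (2 of them in fact on chromosome 7), which code for repressors of transposable elements and mostly lie in clusters, 68.7% were higher in C6, 6 genes lower and 41 not called (median 0.51), and 91 were higher and 9 lower with library totals alone. The list is not complete: ZNF671 and ZIK1 are not on it, and of 98 unlisted genes of the chromosome with zinc finger names 52 were higher (53.1%) and 12 lower. Of the 821 protein-coding genes there without such names 200 were higher (24.4%) and 200 lower. Among genes whose mean log2 CPM reached 2 the shares higher were 77.0% for the listed genes on chromosome 19, 54.5% for unlisted zinc finger names and 31.1% for the rest. In the cluster between 18 and 25 Mb of the short arm 27 of 28 were higher and none lower (median 1.03). Their CPM values summed to 938 in C6 and 461 in F7 there (means over 8 libraries). ZNF626, in that cluster, stood at 3.17 to 7.46 CPM in C6 and at no more than 0.158 CPM in F7, and ZNF439, outside it, at 4.84 to 12.4 CPM against 0 to 1.52 CPM (3.71 ± 0.32). G6 lay nearer F7 for 69 of the 109 called members, beside 5244 of the 9318 genes called in all. Zinc finger genes of these clusters resemble each other, so reads can be split between them.

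Clustered protocadherins, cell-surface proteins of which each cell uses a few from a common locus on chromosome 5, were higher or not called: 22 of 35 were higher in C6 (62.9%), 0 lower and 13 not called (median 0.79). Of these 35, 21 had a mean log2 CPM under 2. By cluster, 3 of 8 alpha, 11 of 13 beta and 8 of 14 gamma genes were higher. PCDHA10 stood at 17.9 to 30.3 CPM in C6 (median 20.1) and at 3.28 to 4.75 CPM in F7 (median 4.11), with a difference of 2.39 ± 0.13 (adjusted p = 2.01e-12, edgeR). PCDHGB5 was higher by 2.02 ± 0.11 and PCDHB2 by 0.81 ± 0.09. Of 11 other protein-coding genes beside the locus 1 was higher and 3 lower. Alpha and gamma genes share their last exons, so reads from those exons cannot be assigned to 1 of them. G6 lay nearer C6 for 17 of the 22, beside 4074 of the 9318 genes called in all.

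Cancer-testis antigens were mostly too low to test: 11 of 47 listed genes were tested, 2 higher in C6, 6 lower and 3 not called. Of these 11, 8 had a mean log2 CPM under 2. Protein-coding genes of that range leaned lower in C6 (30.9% lower and 7.26% higher by at least 2-fold). Beside MAGEA12, MAGEB6 was lower (-2.06 ± 0.27), and TKTL1, a transketolase-like gene, was higher (1.12 ± 0.21). Of 24 imprinted genes 10 were higher and 6 lower, or 8 and 7 with library totals alone. The factors that write and read these marks differed by less than 2-fold for the most part. Of 32 DNA methylation and heterochromatin factors 15 were higher, 3 lower and 14 not called (median 0.17), or 10 and 5 with library totals alone. DNMT3B, a de novo DNA methyltransferase on chromosome 20, was the exception in size, at 18.5 to 24.98 CPM in C6 and 42.6 to 48.3 CPM in F7 (-1.17 ± 0.07, adjusted p = 4.12e-11, edgeR). UHRF1, which guides maintenance methylation, and CBX5, a heterochromatin protein, were higher (0.82 ± 0.09 and 0.97 ± 0.08). Of 37 Polycomb and Trithorax factors 14 were higher, 5 lower and 18 not called. RBBP7, a histone-binding subunit of several repressor complexes on the X chromosome, stood at 442 to 524 CPM in C6 and at 151 to 176 CPM in F7 (1.54 ± 0.05, adjusted p = 2.12e-15, edgeR). ASXL1, on chromosome 20, was lower (-0.96 ± 0.06), and so was the histone demethylase KDM6B (-1.59 ± 0.14).

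By function, most tested members were lower in C6 among ribosome biogenesis genes, NF-kB targets, replication-dependent histones and immediate early genes. Of 22 tested targets of NF-kB, the transcription factor of inflammatory signalling, 1 was higher, 18 lower (81.8%) and 3 not called (median -0.81). BIRC3, an inhibitor of apoptosis, stood at 5.51 to 11.3 CPM in C6 and at 33.1 to 56.3 CPM in F7 (-2.42 ± 0.14, adjusted p = 9.18e-12, edgeR). TNFAIP3, which feeds back on the pathway, stood at 14.3 to 19.7 CPM against 50.7 to 63.6 CPM (-1.76 ± 0.08), and NFKB2, a subunit of the factor, was lower by -1.74 ± 0.10. The 24 drug-treated libraries of these clones gave 3 higher and 8 lower of 22 (30.5 and 30.9% over all genes there; median -0.16) and a TNFAIP3 difference of -0.33, and whether drug changed the clone difference was not tested. Of 32 interferon-stimulated genes and sensors 5 were higher, 17 lower and 10 not called (median -0.37), with OAS3, a sensor of double-stranded RNA, lower by -1.08 ± 0.08 and IRF1 by -1.01 ± 0.09, and IFI27 higher by 1.18 ± 0.15. Of 23 antigen presentation genes 5 were higher and 13 lower, or 2 and 14 with library totals alone, among the lower NLRC5, the activator of class I genes (-1.31 ± 0.17). HLA genes resemble each other and their counts are uncertain. The blood cell markers with any signal, 5 of 8 lower and 0 higher, were all under a mean log2 CPM of 2, and the fixed blood set summed to 1.67 to 5.16 CPM in C6 and 4.18 to 5.90 CPM in F7, and their part in these counts was not tested.

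Of 29 immediate early genes, which respond first to growth factors and stress, 4 were higher, 21 lower (72.4%) and 4 not called (median -0.67), and with library totals alone 1 was higher. FOSL1, an AP-1 subunit, stood at 5.83 to 15.4 CPM in C6 and at 42.7 to 56.3 CPM in F7 (-2.09 ± 0.12, adjusted p = 1.14e-11, edgeR). DUSP5 and DUSP1, phosphatases that act on MAP kinases, were lower by -2.15 ± 0.08 and -1.23 ± 0.08. Of 28 YAP and TEAD factors and targets 3 were higher, 15 lower and 10 not called (median -0.23). GADD45B stood at 54.5 to 100.9 CPM in C6 and at 275 to 315 CPM in F7 (-1.98 ± 0.09), while the factor TEAD2 was higher (1.40 ± 0.13). Of 31 ribosome biogenesis genes 2 were higher, 27 lower (87.1%) and 2 not called (median -0.50). NOP56, of the nucleolar particles that methylate ribosomal RNA, stood at 231 to 310 CPM in C6 and at 494 to 546 CPM in F7 (-0.90 ± 0.06) and lies on chromosome 20. NOLC1 on chromosome 10 was lower by -0.50 ± 0.05. The median of the list relative to the chromosomes of its genes was -0.54. The cytosolic ribosomal proteins did not follow, with 18 of 47 higher, 7 lower and 22 not called, or 12 and 12 with library totals alone and 22 and 1 without the libraries of low detection. Of 19 tested replication-dependent histone genes 1 was higher and 15 lower (median -1.20), among them H1-2 (-1.70 ± 0.09). Their mRNAs mostly lack poly(A) tails, 13 of the 19 had a mean log2 CPM under 2, and without the C6 libraries of low detection 1 was higher and 17 lower.

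Stress pathways were mixed. Of 33 genes of ATF4 and the integrated stress response 7 were higher, 13 lower and 13 not called. DDIT3, the stress factor CHOP, stood at 11.5 to 22.1 CPM in C6 and at 52.5 to 68.9 CPM in F7 (-1.86 ± 0.11), and SLC3A2, an amino acid transporter chain, was lower by -1.61 ± 0.09. Of 28 NRF2 and glutathione genes 8 were higher and 12 lower, or 5 and 14 with library totals alone. The ferritin chains FTH1 and FTL were lower by -0.74 ± 0.04 and -1.04 ± 0.07, as was HMOX1 above. Of 24 heat shock genes 6 were higher and 10 lower, with HSPA8 lower by -0.70 ± 0.05. For the unfolded protein response the counts were 9 higher and 8 lower of 24, and 7 and 10 with library totals alone. For HIF1 targets and glycolysis they were 8 and 12 of 33, 5 and 15 with library totals alone, and 12 and 11 without the C6 libraries of low detection. SLC2A3, a glucose transporter, was lower by -1.41 ± 0.08 and PFKL, a glycolytic enzyme on chromosome 21, was higher by 1.13 ± 0.15. Of the 13 mRNAs of the mitochondrial genome 9 were higher, 0 lower and 4 not called (median 0.27), or 6 and 0 with library totals alone. MT-CO3 stood at 4414 to 5881 CPM in C6 and at 3300 to 4463 CPM in F7, and the groups overlapped for every one of the 13.

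Genes of G1/S and DNA replication were higher more often than lower. Of 40, 24 were higher in C6 (60%), 6 lower and 10 not called (median 0.24), or 19 and 9 with library totals alone. CDK2, the kinase of S phase entry, stood at 159 to 166 CPM in C6 and at 101.2 to 109 CPM in F7 (0.63 ± 0.05, adjusted p = 5.79e-10, edgeR). TYMS, the thymidylate synthase, was higher by 0.82 ± 0.05. RB1, the brake on S phase entry that lies on chromosome 13, stood at 71.9 to 120.8 CPM in C6 and at 33.7 to 44.6 CPM in F7 (1.34 ± 0.11). Of 30 G2/M genes 6 were higher and 11 lower, among them AURKA and CDC25B, both on chromosome 20 (-0.91 ± 0.05 and -1.02 ± 0.08), and AURKB on chromosome 17 (-0.72 ± 0.07). Of 34 genes of TOP1 lesion and single-strand break repair, TDP1 and TOP1 included, 14 were higher, 8 lower and 12 not called, or 11 and 10 with library totals alone. LIG1, a DNA ligase, stood at 107 to 168 CPM in C6 and at 52.7 to 74.4 CPM in F7 (1.07 ± 0.09), XRCC6, the Ku70 subunit, was higher by 0.60 ± 0.05, and MUS81, a nuclease for stalled forks, was lower by -0.91 ± 0.12. Of 27 homologous recombination and Fanconi anaemia genes 11 were higher, 1 lower and 15 not called, or 9 and 4 with library totals alone, with BARD1 higher by 0.83 ± 0.12. Of 30 p53 targets 5 were higher and 13 lower, or 2 and 17 with library totals alone, with GADD45A lower by -0.83 ± 0.06 and PLK2 by -1.17 ± 0.09. As background, HEK293 cells carry adenoviral proteins, of which some bind p53.

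Matrix, adhesion and signalling genes held large differences in both directions. Of 32 collagens 17 were higher, 5 lower and 10 not called (median 0.46). COL4A1 and COL4A2, the pair of basement membrane chains on chromosome 13, were higher by 1.29 ± 0.08 and 1.01 ± 0.07, COL4A1 at 96.6 to 122.9 CPM in C6 against 37.4 to 59.5 CPM in F7. COL14A1 was higher by 1.59 ± 0.10, and of the other matrix genes FBN1, fibrillin 1, by 1.82 ± 0.14 and GPC6, a glypican, by 1.79 ± 0.14. Of 18 integrins 7 were higher, 1 lower and 10 not called, or 6 and 3 with library totals alone, with ITGB8 higher by 1.44 ± 0.15, ITGA4 by 1.27 ± 0.11 and ITGB1 by 0.62 ± 0.07. FAT4, a giant cadherin, stood at 20.4 to 30.9 CPM in C6 and at 3.78 to 11.6 CPM in F7 (1.88 ± 0.16). Of 45 WNT genes 19 were higher and 9 lower. DKK1, a secreted WNT antagonist, stood at 6.46 to 11.5 CPM in C6 and at 37.4 to 65.7 CPM in F7 (-2.50 ± 0.15, adjusted p = 1.04e-11, edgeR), and FZD1, a receptor, was higher (1.24 ± 0.08). In TGF-beta and BMP signalling 15 were higher and 14 lower of 42, or 13 and 16 with library totals alone. Beside BMP2 and CHRDL1, ID4, an inhibitor of helix-loop-helix factors that BMP signalling induces, stood at 296 to 321 CPM in C6 and at 119 to 149 CPM in F7 (1.17 ± 0.05). In NOTCH and hedgehog signalling 10 were higher and 8 lower of 32, or 9 and 11 with library totals alone: the ligand SHH was lower (-1.47 ± 0.12) and the receptor and target PTCH1 higher (1.27 ± 0.08). Of 58 receptor tyrosine kinases and ligands 24 were higher and 24 lower, KIT among the lower (-2.02 ± 0.14). TNFRSF10D, a decoy receptor for TRAIL, stood at 22.6 to 33.6 CPM in C6 and at 158 to 177 CPM in F7 (-2.52 ± 0.07, adjusted p = 1.14e-16, edgeR). Of 19 drug transporters 5 were higher and 10 lower, or 3 and 11 with library totals alone, with ABCC4 higher by 0.89 ± 0.07 and the nucleoside carrier SLC29A2 lower by -1.17 ± 0.13.

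**Figure D4:**
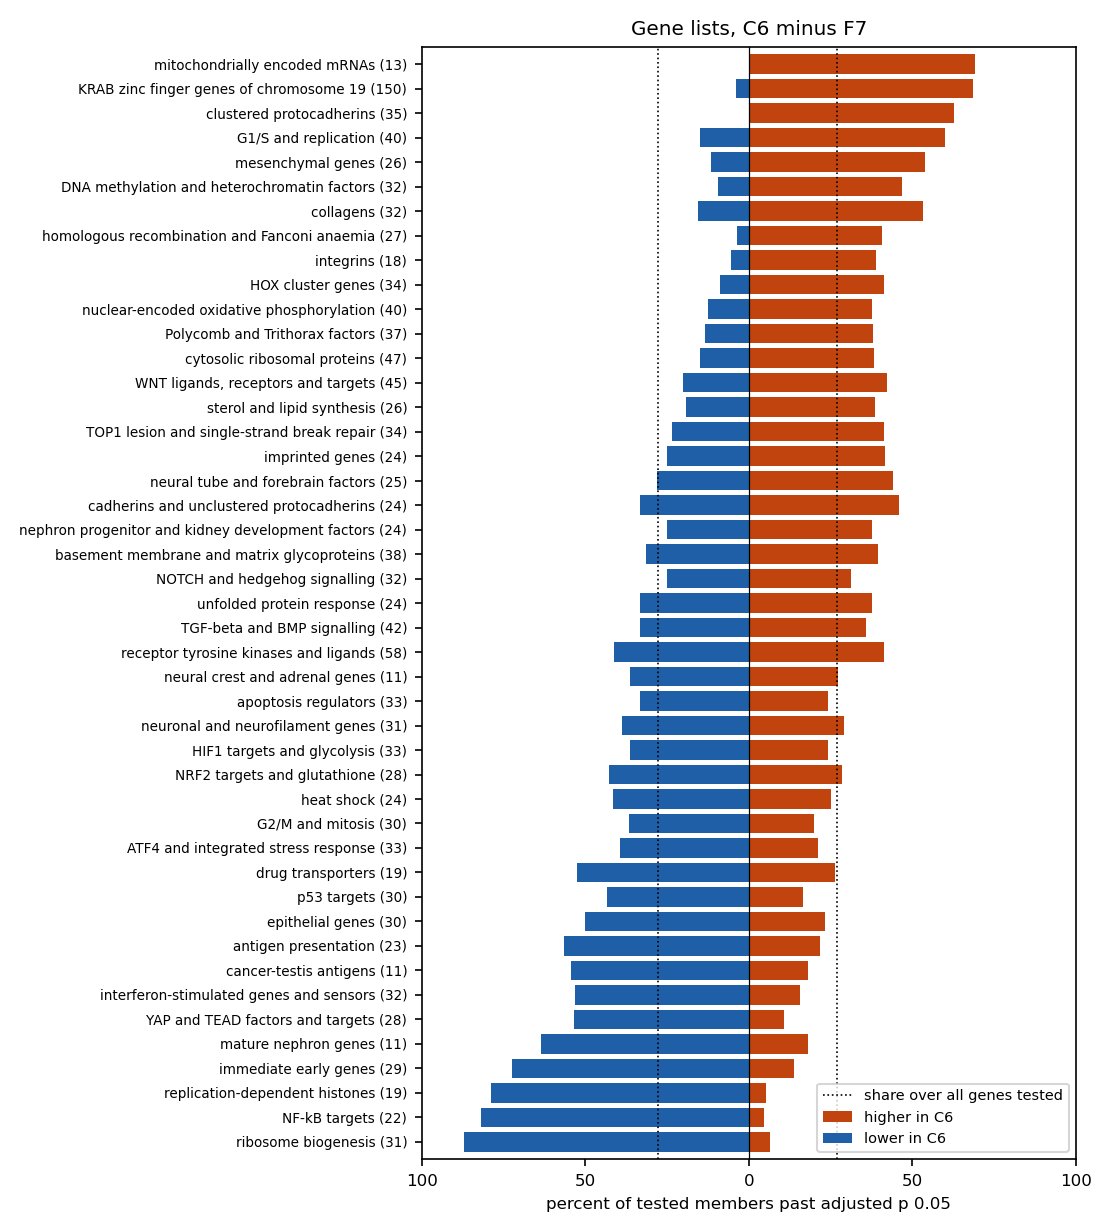
Percent of the tested members of each list (number in brackets, lists with at least 10 tested) that passed an adjusted p of 0.05, higher in C6 to the right and lower to the left, with dotted lines at the shares over all genes tested, 26.8% and 27.8%. Zinc finger genes, protocadherins and mitochondrial mRNAs reach furthest to the right, and ribosome biogenesis, NF-kB targets and histones furthest to the left.

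Whole chromosomes were offset between the clones. Over 11615 protein-coding genes whose mean log2 CPM reached 2, the median log2 difference was -0.55 on chromosome 20, -0.42 on chromosome 11 and -0.24 on chromosome 16. It was 0.53 on chromosome 13, 0.45 on chromosome 21, 0.33 on chromosome 14, 0.29 on chromosome 7 and 0.25 on each of chromosomes 6 and 15. On chromosome 20, 73.1% of genes were called lower and 6.47% higher, and on chromosome 13, 77.5% were called higher and 5.26% lower. The same was read per library, as the median over a chromosome's genes of log2 CPM minus each gene's mean over the 16 libraries. For chromosome 20 that value ran from -0.37 to -0.19 in C6 and from 0.24 to 0.32 in F7, and for chromosome 13 from 0.07 to 0.41 in C6 and from -0.34 to -0.13 in F7. Of 23 chromosomes, 10 did not overlap between the clones, 7 with C6 above and 3 with C6 below, each at an exact permutation p of 0.000155, 2-sided, the smallest that 8 against 8 libraries allow, and an adjusted p of 0.000357 over the 23. The 3 with C6 below were chromosomes 20, 11 and 1. On chromosome 1 the libraries differed by only -0.06, the fitted median was -0.03, and 28.8% of genes were higher and 29.9% lower. Groups without overlap thus need not differ by much. With chromosomes 9 and 16, which overlapped, 12 passed an adjusted p of 0.05. With all 16 libraries the differences between libraries were 0.51 for chromosome 13, -0.48 for chromosome 11 and -0.57 for chromosome 20. Without the C6 libraries of low detection they were 0.42, -0.44 and -0.54. DNA copy number was not measured, and a share of expression has no scale of copies.

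**Figure D5:**
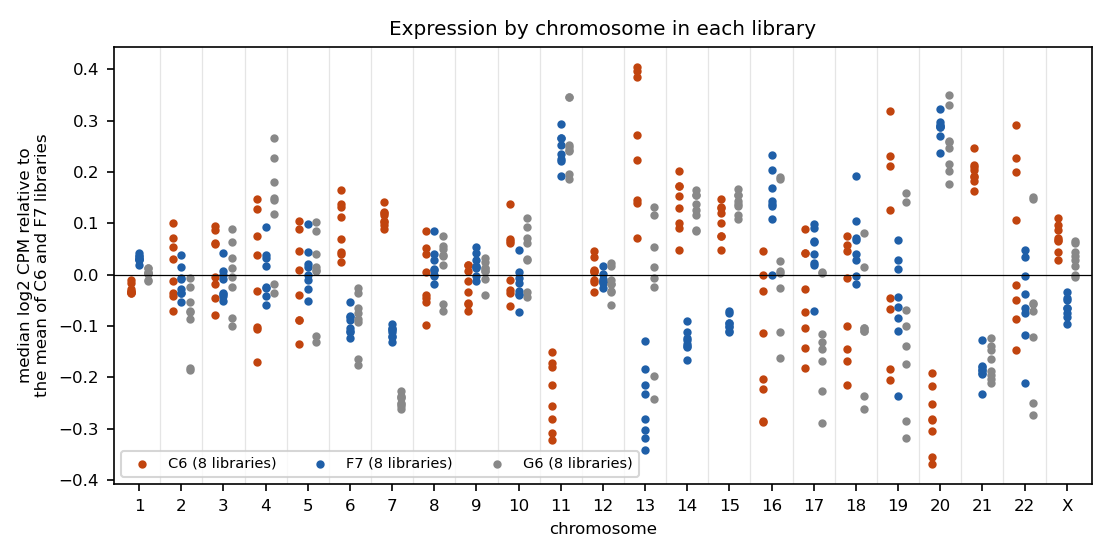
Median log2 CPM of the protein-coding genes of each chromosome relative to their mean over the C6 and F7 libraries (vertical axis), 1 point per library without drug. C6 and F7 lie furthest apart on chromosomes 20, 13, 11 and 21, and G6 stands with F7 on 20 and 11 and with C6 on 14 and 15.

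Blocks of about 50 neighbouring genes showed that some offsets ran over a chromosome and others stopped within one. All 4 blocks of chromosome 13 lay between 0.50 and 0.57, all 13 blocks of chromosome 11 between -0.60 and -0.18, and all 6 of chromosome 20 between -0.76 and -0.21. On chromosome 9 the first block, to 27.1 Mb, had a median of 0.52 and the other 8 lay between -0.10 and 0.06. On chromosome 18 the block from 50.3 Mb to the end had -0.45, which holds ZNF532, and the first block 0.20. On chromosome 17 the block from 4.81 to 7.93 Mb had -0.45, with 81.5% of its genes lower. Chromosome 6 reached 0.55 in the block from 70.4 to 89.6 Mb but 0.03 in the block with the first part of the HLA region. Relative to the median of its chromosome RB1 differed by 0.81, NOP56 by -0.35 and TOP1 by -0.10. Taken relative to the median of each gene's chromosome, NF-kB targets had a median of -0.96, protocadherins 0.77, zinc finger genes of chromosome 19 0.33 and mesenchymal genes 0.33, while DNA methylation factors came to 0.02.

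G6, with 8 libraries of its own without drug, shows which clone stood apart, as a description that shares the C6 and F7 samples. Of the 9318 called genes its mean lay nearer C6 for 4074 and nearer F7 for 5244, and of the 2368 with at least 2-fold differences nearer C6 for 909 and nearer F7 for 1459. Its chromosome medians stood near F7 on chromosome 20 (0.25) and 11 (0.25), near C6 on 14 and 15, and between the clones on 13. For ribosome biogenesis it lay nearer C6 for 21 of 29 called genes, for antigen presentation for 14 of 18, and for the NRF2 and glutathione list nearer F7 for 15 of 20.

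The difference was measured again in 24 libraries of the same clones given topotecan, OL9-119 or both, which repeats the measurement but not the cloning. There 10914 of 17780 genes passed (61.4%). Of 9273 genes called without drug and tested there, 8495 were called with the same sign (91.6%) and 2 with the opposite sign. All 30 genes of largest change were called with the same sign, with log2 differences from -4.99 to -1.76 among the reduced and from 2.08 to 4.49 among the increased. CRABP1 dropped to 0 in at least 1 drug-treated C6 library and reached 3.98 CPM in another, while SERP2 stood at 2.65 to 7.47 CPM in all of them and at no more than 0.178 CPM in the F7 libraries with drug. PCDHA10 differed by 2.32 and VIM by 1.24 there, next to 2.39 and 1.25 without drug.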

How the data were processed

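Poly(A) RNA of 60 libraries was read from the deposited table of counts, whole numbers per Ensembl gene that the authors had not normalised, and 16 libraries entered the comparison. Build hg38 and the tools STAR 2.7.8, FastQC 0.11.9 and Picard 2.26.6 appear in the submitters' processing notes; no source used here gives the counting tool or its strand setting. Of 58395 identifiers 58275 were found in GENCODE 29 and 57754 had a current symbol.

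Low genes were removed by filterByExpr (4 groups) and the rest tested by edgeR 4.0.16 in R 4.3.3 (robust quasi-likelihood F test, 2-sided, TMM, vehicle as a factor), with Benjamini-Hochberg adjustment over all genes and a threshold of 0.05. CPM uses TMM effective library sizes, and 1 CPM is about 5 to 20 counts at these depths; ± is the SE of a log2 difference. Depth and counting error set what low genes can show, and the fit was tested on simulated data. Members, lists and tests were chosen with earlier results of these data known. Named genes are TDP1, TOP1, the 15 highest and 15 lowest called log2 differences at a mean log2 CPM of at least 2 with the same sign in both vehicles and an established protein-coding symbol, genes near 0 in 1 clone, up to 4 called members of each of 52 lists by p, and lineage markers; a few of these genes are not reported here. Fitted medians by chromosome, neighbours within 500 kb and promoter CpG are descriptions. The values of each chromosome per library were compared between the clones by an exact permutation test, 2-sided, with Benjamini-Hochberg adjustment over 23 chromosomes. Alternatives were other scalings, filters, tools (DESeq2 1.42.0, limma 3.58.1), vehicles, libraries and a replicate block.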

Additional observations from a re-analysis of the deposited data

Results flagged for a closer look

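Among the 36 genes followed by library, 69 groups of 8 libraries (a gene in a clone) were searched for a lone highest or lowest value, and 6 were picked out by Dixon's test, at its 95% critical value; chance picks about 1 in 20 groups. In F7 untreated replicate 4, COL2A1 was the highest of the F7 libraries at 7.61 CPM (next 3.01 CPM), FLT3 the highest at 3.99 CPM (next 2.00 CPM), ZNF737 the highest at 7.04 CPM (next 4.24 CPM) and DERL3 the lowest at 0.19 CPM (next 1.90 CPM). TENM1 was highest in F7 DMSO replicate 4 at 7.12 CPM (next 5.76 CPM). LGALS8 was highest in C6 DMSO replicate 1 at 27 CPM (next 19.8 CPM). In each of these 6 genes the C6 and F7 libraries did not overlap with that library included. All 6 had been chosen by their difference in these same libraries.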

How the results depend on the processing

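Against 9318 called genes, the alternatives gave 5738 with untreated libraries only and from 7354 (DMSO libraries only) to 10736 (DESeq2) otherwise, and leaving out 1 replicate number of a clone gave 8025 to 9879. The count of at least 2-fold differences, 2368, became 3684 by DESeq2 and 4368 with no filter on low counts, and 2199 to 2555 with 1 replicate left out; a test against a fold of 1.5 called 2539. Genes near 0 in 1 clone numbered 28 under the wider rule and 3 with 0 counts required, against 5. The dependence on the vehicle was called for 2 genes by DESeq2, 276 by limma voom and 7 with no filter, against 0. Untreated libraries alone, with 5738 genes called, placed 2412 called genes nearer C6 in G6. With both vehicles it was 4074 of 9318, and 3457 to 4168 with 1 replicate left out. Lists with at least 10 tested genes of which most calls went 1 way (at least 50% of the tested genes, and 3 times the other direction) numbered 14, 6 with untreated libraries only and 10 to 14 with 1 replicate left out. Chromosomes with a median past 0.2 numbered 9, with 6 for library totals alone, 12 with the vehicle libraries of a number summed, and 9 to 11 with 1 replicate left out. The cause of these changes was not tested, and some of these alternatives also used fewer libraries. No named gene reversed. Over all genes the near-even balance of 4570 higher and 4748 lower turned in some alternatives, as in all 60 libraries (4777 and 4769) and DMSO libraries only (3769 and 3585). The balance within lists was compared only under DESeq2 size factors, library totals alone and without the C6 libraries of low detection. It turned in 4 lists with library totals alone (kidney development to 6 higher and 7 lower, unfolded protein response to 7 and 10, NOTCH and hedgehog to 9 and 11, TGF-beta and BMP to 13 and 16). Without the C6 libraries of low detection it turned in 1 (HIF1 targets to 12 and 11). Replicate numbers did not pair the clones: same-numbered C6 and F7 libraries correlated at -0.12, -0.34, -0.09 and -0.29, and with the number as a replicate block 8863 genes passed, 94.5% of the called genes among them, and all 222 named genes kept their call. The drug-treated libraries gave 11103 calls with the replicate block against 10914. With the prefix of the library names (L01, L02 and L03 in the labels) as a factor 8773 genes passed, and 97.8% of called genes had the same sign within all 3 prefixes.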

Other observations

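Metabolic and survival genes not described above were mixed. Of 40 nuclear-encoded oxidative phosphorylation genes 15 were higher in C6, 5 lower and 20 not called, or 8 and 7 with library totals alone and 21 and 2 without the C6 libraries of low detection; ATP5PF, an ATP synthase subunit on chromosome 21, was higher by 0.74 ± 0.06 and NDUFS3, a complex I subunit on chromosome 11, lower by -0.46 ± 0.07. Of 26 sterol and lipid synthesis genes 10 were higher and 5 lower, or 7 and 7 with library totals alone. SREBF2, the master factor of sterol synthesis, stood at 83.4 to 124.1 CPM in C6 and at 47.2 to 61.0 CPM in F7 (0.99 ± 0.08), while DHCR7, one of the last enzymes of cholesterol synthesis, was lower (-0.71 ± 0.10). Of 33 apoptosis regulators 8 were higher and 11 lower, with the BH3 proteins BID and BMF higher by 1.17 ± 0.10 and 1.30 ± 0.12. All 3 tested metallothioneins of 10 listed were lower, MT2A by -0.53 ± 0.13, or 2 of them without the libraries of low detection. Of 9 aryl hydrocarbon receptor targets 2 were higher and 3 lower, and CYP1A1 stood at 5.24 to 6.73 CPM in C6 and at 13.1 to 20.4 CPM in F7 (-1.46 ± 0.11).

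Of 24 cadherins outside the clusters 11 were higher and 8 lower, with CELSR1, a cadherin of planar polarity, higher by 1.02 ± 0.09. Of 38 basement membrane and matrix glycoproteins 15 were higher and 12 lower. Markers of other cells were few: 3 of 6 tested fibroblast markers were higher and 1 lower, 1 of 5 endothelial markers was higher and 2 lower, and the 1 tested hepatocyte marker was not called.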
